A study of Mus musculus with 48 samples.

Results

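Plasma cells of mice with a c-Rel transgene were compared with plasma cells of mice without it, 16 of the 48 libraries of the study. The 8 transgenic libraries came from mice 5 to 8 and 13 to 16 (genotype c-RelTG), and the 8 control libraries from mice 1 to 4 and 9 to 12. Mice of both groups also share 1 further allele. All 16 mice had been immunized intraperitoneally with sheep red blood cells, which elicit T cell dependent antibody responses, and the sources used here give neither their ages nor the day of collection. Spleen cells were enriched for CD138 on magnetic beads, and 1000 cells with low B220 and surface CD138 were then sorted from each mouse into lysis buffer. The labels do not say which promoter drives the transgene. Naive B cells and germinal center (GC) B cells of the same mice, 16 libraries each, served to ask where the effect in plasma cells differed.

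Plasma cells are the antibody-secreting end stage of the B cell lineage. They lose much of the B cell program (antigen presentation, B cell receptor signaling, homing through lymph nodes) and expand the endoplasmic reticulum to fold and export immunoglobulin. c-Rel is a subunit of NF-kB, a family of transcription factors held in the cytoplasm by inhibitor proteins (IkB) until a receptor signals. It is best known for its part in B cell activation and GC maintenance, and the plasma cell regulator Blimp-1, encoded by Prdm1, represses its gene. NF-kB also raises the genes of several of its own inhibitors and subunits, so these genes are commonly read as a record of pathway activity.

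Libraries were made as bulk SCRB-seq, which tags each captured messenger RNA molecule at its 3′ end with a unique molecular identifier (UMI). They held between 481229 and 794273 UMIs, and totals did not differ detectably between genotypes (586920 ± 72202 in controls and 646245 ± 94882 in transgenic mice, SD, n = 8 each, two-sided exact permutation p = 0.179). Levels are in CPM, UMIs scaled to a common library total. The 8 defining plasma cell markers stood above both other populations. Median levels were 3761 CPM for Xbp1, 209 CPM for Tnfrsf17 and 383 CPM for Sdc1, against at most 420, 3.67 and 22.1 CPM as the medians of naive or GC B cells. Summed markers of T cells and of naive B cells were lower in the transgenic libraries, and their values stand beside the genes they touch.

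Rel, the gene of c-Rel (chromosome 11, 23736847 to 23770970, GRCm38), was scarce in plasma cells. A single UMI was found in 1 of 8 control libraries, and 18 UMIs were found in 7 of 8 transgenic libraries, with at most 5 in any of them. This gave 0.281 ± 0.795 CPM in controls and 3.69 ± 3.03 CPM in transgenic mice (n = 8 each, two-sided exact permutation p = 0.00264). Among mice 1 to 8 the difference was 3.62 CPM (exact p = 0.143), and among mice 9 to 16 it was 3.20 CPM (exact p = 0.0286, the smallest that 4 against 4 allows). Transcripts of the transgene that end differently from Rel would have been missed.

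The transgene moved 288 of 4538 tested genes, 6.35%, at an adjusted p under 0.05. Of these, 183 were lower in transgenic plasma cells (4.03% of tested genes) and 105 were higher (2.31%). With libraries scaled by their totals alone, which moved the median of all genes from 0.00 to 0.09 on the log2 scale, the split was 104 lower and 180 higher, so that directions below are relative to TMM scaling and exceptions are named. Differences of over 2-fold were found for 55 called genes, 36 lower and 19 higher. On TMM-scaled CPM the ranges of both groups did not overlap for 45 tested genes (0.992%), and 44 of those were called. Among mice 1 to 8 alone 71 genes were called, and among mice 9 to 16 alone 106. In these bulk samples fewer cells of a type and less RNA per cell cannot be told apart.

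Removing the immunoglobulin genes, which held 50.3 ± 2.06% of the UMIs in controls and 49.7 ± 1.73% in transgenic mice, left the remaining genes nearly as they were. Of 4432 genes tested without them 281 were called (6.34%), 177 lower (3.99%) and 104 higher (2.35%). Among the 4400 genes tested both ways, 270 were called both ways, 3 only with the immunoglobulin genes and 10 only without them. No fold change of these genes moved by more than 0.0131 on the log2 scale. The immunoglobulin genes themselves gave 12 calls among 91 tested (13.2%), 7 higher and 5 lower.

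**Figure D1:**
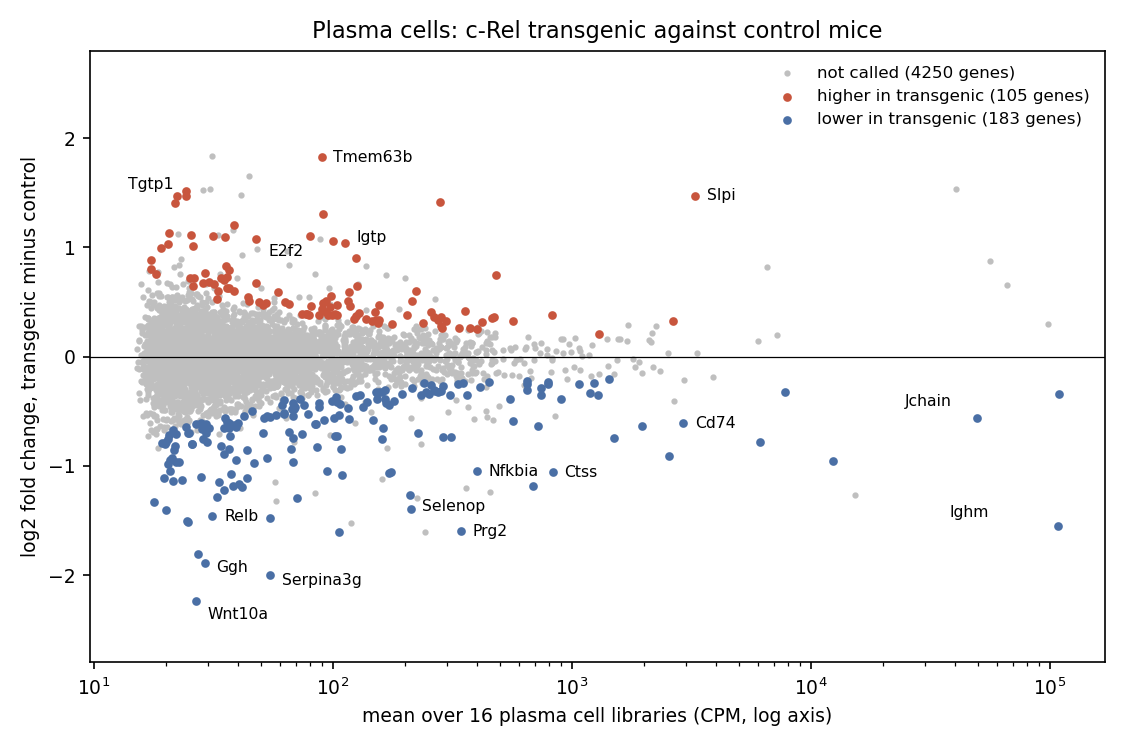
Log2 fold change between transgenic and control plasma cells (y axis, transgenic minus control) against the mean level over 16 libraries (x axis, CPM, log scale), 1 point per tested gene. The 183 genes called lower are blue and the 105 called higher are red; Ighm, at the far right, is the most abundant gene that was lowered by over 2-fold.

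Members of the NF-kB family itself fell in transgenic plasma cells. Gene lists and their members were chosen with earlier results of these data known, so the called shares here and below are descriptions. Of 18 listed subunits, inhibitors and regulators 9 were expressed well enough to be tested, and 4 fell while none rose (44.4% called, against 6.35% of all tested genes, and median log2 fold change −0.50, against 0.00). Those that fell were Relb and Nfkb2, the subunits of the noncanonical pathway, and the inhibitor genes Nfkbia (IkB alpha) and Nfkbie (IkB epsilon). Upstream of RefSeq start sites of Nfkbia, Nfkbie and Nfkb2, the windows (GRCm38.p6) hold matches to the kappa B consensus, the binding motif of the family, shown here in capitals because these genes fell in c-Rel transgenic plasma cells.
Nfkbia, chr12:55492648-55492897, minus strand: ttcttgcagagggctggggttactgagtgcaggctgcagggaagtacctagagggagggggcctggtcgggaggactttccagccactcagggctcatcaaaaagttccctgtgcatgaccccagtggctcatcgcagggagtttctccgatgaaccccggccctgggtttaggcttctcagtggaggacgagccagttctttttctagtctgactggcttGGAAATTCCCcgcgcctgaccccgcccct
Nfkbie, chr17:45555450-45555699, plus strand: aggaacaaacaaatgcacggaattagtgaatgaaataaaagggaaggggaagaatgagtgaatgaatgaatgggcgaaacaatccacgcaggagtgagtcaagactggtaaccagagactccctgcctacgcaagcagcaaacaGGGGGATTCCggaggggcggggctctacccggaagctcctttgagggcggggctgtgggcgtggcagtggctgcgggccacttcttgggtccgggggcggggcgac
Nfkb2, chr19:46304698-46304727, plus strand: GGGAATTCCCCccctcggggggccgaaagg

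The first match begins 29 bases before the start site of Nfkbia, 106 before that of Nfkbie and 39 before that of Nfkb2, where 2 overlapping matches fill the capitals. Nfkb2 has 3 windows, all with a match; the 30 bases shown come from the first, which holds 3 matches, the third running past the end of these bases. They lie downstream of the GENCODE start of the gene at 46304320. Searched on both strands, the motif was present in 7.25% of all 32851 windows of 250 bases. Among genes with a window the motif was found in 8.23% of all 27025 and in 10.4% of those tested. It was found in 13.2% of those called lower (16 of 121) and in 7.5% of those called higher (6 of 80). Relb had no window and was not searched. A match is a string in the reference and not evidence of binding.

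Relb (chromosome 7, 19606217 to 19629438, coordinates from GENCODE M21, GRCm38) ranged from 22.5 to 76.7 CPM (median 45.5) in controls and from 6.31 to 22.2 CPM (median 19.3) in transgenic mice. On this TMM scale the groups did not overlap (adjusted p = 2.27e-04, log2 fold change −1.46 with SE 0.25, n = 8 mice each). The lowest control, mouse 2, held 10 UMIs and the highest transgenic library, mouse 13, held 16. Scaled by totals alone these 2 libraries change order, so the gap rests on TMM scaling. Nfkb2, whose product p100 is processed to p52, ranged from 26.99 to 103 CPM (median 56.2) in controls and from 17.3 to 32.4 CPM (median 24.3) in transgenic mice. Only the lowest control library lay within the transgenic range (adjusted p = 1.96e-04, log2 fold change −1.17 with SE 0.20).

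Nfkbia (chromosome 12, 55489410 to 55492647) was the most abundant of these genes, from 431 to 736 CPM (median 490.1) in controls and from 139 to 386 CPM (median 263) in transgenic mice. Every control library lay above every transgenic library (adjusted p = 0.00274, log2 fold change −1.05 with SE 0.18). Nfkbie ranged from 12.04 to 45.7 CPM (median 28.1) in controls and from 7.68 to 25.4 CPM (median 13.9) in transgenic mice, and the groups overlapped (adjusted p = 0.0222, log2 fold change −0.92 with SE 0.26). With DESeq2 it was not called. Nfkbie was not called without the library of control mice 4, 10 or 12 or transgenic mice 6, 7 or 16 (adjusted p 0.0552 to 0.0779). Among mice 1 to 8 alone 1 of 9 tested list members was called lower, and Nfkb2, Nfkbia and Nfkbie were not called. Among mice 9 to 16 alone 4 of 10 were called lower, and Nfkbie was not called. Rela, the main activating subunit, did not pass (51.2 ± 7.54 CPM in controls and 45.8 ± 6.44 CPM in transgenic mice, adjusted p = 0.592), nor did Nfkbib (adjusted p = 0.885) or Tnip1 (log2 −0.50, adjusted p = 0.0941). Tnfaip3, the feedback deubiquitinase A20, fell under the expression filter and is given as values only, 20.4 ± 10.8 CPM in controls and 5.54 ± 3.70 CPM in transgenic mice.

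Of 12 tested genes known as NF-kB targets in B cells 1 fell and none rose (8.33% called, near the share of all genes, and median log2 fold change −0.17). The gene that fell was Ebi3, a subunit shared by the cytokines IL-27 and IL-35, of which plasma cells can be a source. It went from 56.5 ± 12.6 to 30.97 ± 10.2 CPM (adjusted p = 6.41e-04, log2 fold change −0.85 with SE 0.17). The receptor adaptor Traf1 (log2 −0.64, adjusted p = 0.0683) and the cyclin gene Ccnd2 (log2 0.72, adjusted p = 0.230) did not pass.

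Wnt10a, a secreted Wnt ligand (chromosome 1, 74791516 to 74804179), fell the most among named genes and ranged from 22.99 to 63.9 CPM (median 39.9) in controls and from 4.15 to 13.3 CPM (median 9.68) in transgenic mice. Its highest transgenic library stayed below its lowest control (adjusted p = 2.03e-09, log2 fold change −2.24 with SE 0.24). Wnt10a was the only gene of 4 tested Wnt pathway members to pass. The ranges of controls and transgenic mice were apart for 11 of the 14 largest decreases reported here and for 2 of the 15 largest increases, against 0.992% of all tested genes. These genes were picked for the size of their change, so the counts are a description.

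Protease regulators held calls in both directions. The list of protease inhibitors and cathepsins also holds Ggh, which is neither. Of the 14 tested members of the list, Ggh included, 4 fell and 1 rose (35.7% called, against 6.35% of all tested genes, where 4.03% fell and 2.31% rose). Serpina3g (chromosome 12, 104236245 to 104241939), an intracellular inhibitor of cathepsins in lymphocytes, ranged from 44.99 to 144 CPM (median 91.2) in controls and from 9.68 to 32.7 CPM (median 23.2) in transgenic mice without overlap (adjusted p = 2.27e-04, log2 fold change −1.997 with SE 0.27). Its near copy Serpina3f also fell (36.4 ± 19.1 to 13.3 ± 8.69 CPM, adjusted p = 0.0341), and how UMIs were shared between the copies is uncertain. Serpina3f was not called without the library of control mice 3, 4 or 10 or transgenic mice 6, 7, 8, 13, 14, 15 or 16 (adjusted p 0.0503 to 0.0682). Ggh, a lysosomal hydrolase that trims folate polyglutamates, went from 45.8 ± 13.2 to 12.4 ± 4.86 CPM without overlap (adjusted p = 6.26e-09, log2 fold change −1.89 with SE 0.22). Cst3, the secreted cysteine protease inhibitor cystatin C, differed by a small amount (1164 ± 98.5 to 981 ± 66.4 CPM, adjusted p = 0.0123). That call was lost without the control library of mouse 12 (adjusted p = 0.0563) and with scaling by totals alone.

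Slpi, a secreted inhibitor of serine proteases, was the member that rose, and it was abundant. It ranged from 559 to 3627 CPM (median 1551) in controls and from 2781 to 5822 CPM (median 4849.9) in transgenic mice. Of the controls, mice 1, 4, 10 and 12 lay at 559 to 932 CPM and the others at 2169 to 3627 CPM, where they reached into the transgenic range (adjusted p = 0.0442, log2 fold change 1.47 with SE 0.40). Slpi was not called without the library of control mice 1, 4, 9, 10 or 12 or transgenic mice 5, 6, 7, 8, 14, 15 or 16 (adjusted p 0.0588 to 0.0857).

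Prg2 (chromosome 2, 84980461 to 84983632), the major basic protein of eosinophil granules, ranged from 382 to 795 CPM (median 465.8) in controls and from 134 to 244 CPM (median 163) in transgenic mice. All control libraries lay above all transgenic ones (adjusted p = 4.69e-05, log2 fold change −1.60 with SE 0.18). The 5 eosinophil, basophil and mast cell markers present in the table summed to 0 to 12.8 CPM in controls and 0 to 6.91 CPM in transgenic mice, with Siglecf and Gata2 at no UMI. The part of such cells in the decrease of Prg2 was not tested.

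Selenop, a secreted carrier of selenium, ranged from 254 to 353 CPM (median 311) in controls and from 59.4 to 147 CPM (median 126) in transgenic mice, without overlap (adjusted p = 1.86e-05, log2 fold change −1.40 with SE 0.15). Apoe, an apolipoprotein that macrophages also make, went from 159 ± 85.2 to 52.3 ± 25.7 CPM with overlapping ranges (adjusted p = 0.0123, log2 fold change −1.61 with SE 0.35). The 14 monocyte and macrophage markers summed to 14.7 to 50.2 CPM in controls and 17.97 to 62.7 CPM in transgenic mice (sums were tested as log2(CPM + 1), exact permutation p = 0.529, adjusted p = 0.793 over 15 library measures). None of the 14 was at 0 across all libraries. The part of such cells in the decreases of Selenop and Apoe was not tested.

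**Figure D2:**
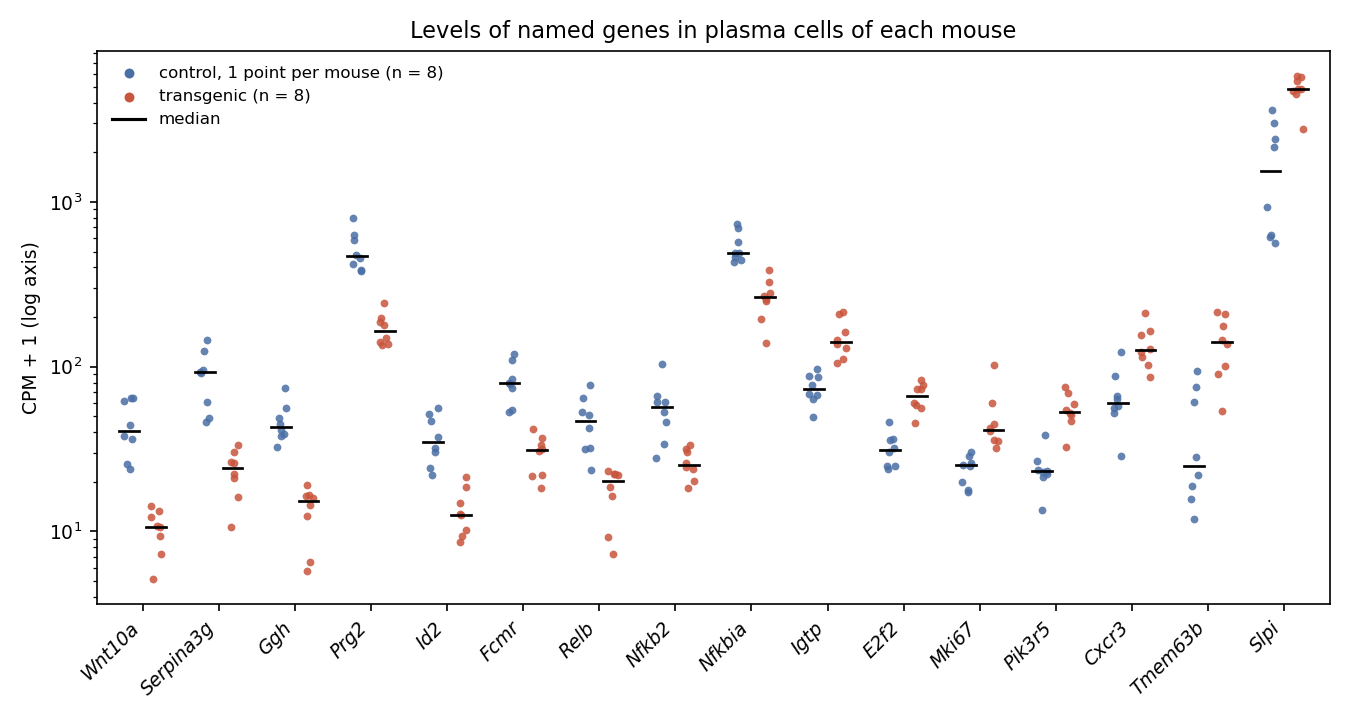
Level of 16 named genes in each plasma cell library (y axis, CPM + 1, log scale), with 1 point per mouse, 8 controls in blue and 8 transgenic mice in red, and a bar at each median. Wnt10a, Serpina3g, Ggh, Prg2, Id2, Fcmr, Relb and Nfkbia are lower in every transgenic mouse than in any control, narrowly for Id2 and Relb. The controls of Slpi and Tmem63b spread widely.

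Several genes that plasma cells keep from the B cell stage fell. Of 16 tested members of this list 8 fell and 1 rose (56.2% called, while over all tested genes 4.03% fell and 2.31% rose, and median log2 fold change −0.32). Fcmr, the receptor for IgM (chromosome 1, 130865669 to 130880791), ranged from 51.7 to 119 CPM (median 78.03) in controls and from 17.3 to 40.97 CPM (median 30.3) in transgenic mice and did not overlap (adjusted p = 3.71e-08, log2 fold change −1.48 with SE 0.17). The transcription factor gene Foxp1 went from 59.97 ± 15.9 to 27.8 ± 9.25 CPM (adjusted p = 1.26e-05, log2 fold change −1.12 with SE 0.18).

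Smaller decreases of this list were found for Ptprcap, which binds the phosphatase CD45 (361 ± 73.2 to 217 ± 35.7 CPM, adjusted p = 8.73e-04), and for the glycoprotein gene Cd52 (1443 ± 152 to 1129.7 ± 65.7 CPM, adjusted p = 2.63e-04). The antigen receptor subunit Cd79a (log2 −0.39), the kinase Blk (−0.78) and Ms4a1, which encodes CD20 (−0.44), also fell. Cd24a, a surface glycoprotein of B cells, rose from 409.5 ± 33.1 to 521 ± 63.5 CPM (adjusted p = 0.00120), while the partner subunit Cd79b did not pass (log2 0.11, adjusted p = 0.408).

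The 10 naive B cell markers summed to 164 to 294 CPM in controls and 99.9 to 175 CPM in transgenic mice (adjusted p = 0.00466 over 15 library measures, exact permutation, n = 8 each). Fcmr is among them. Without the members that passed the test, a choice made after seeing the data, the sum was 111 ± 22.5 and 88.8 ± 24.2 CPM (exact permutation p = 0.0637 on the log2(CPM + 1) scale, against 3.11e-04 for all 10 markers). The part of naive B cells in the decreases of this list was not tested.

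Ptpn6, the inhibitory phosphatase SHP-1, ranged from 108 to 191 CPM (median 153) in controls and from 56.7 to 95.6 CPM (median 66.3) in transgenic mice, without overlap (adjusted p = 3.47e-09, log2 fold change −1.09 with SE 0.12). It was 1 of 3 genes that fell among 7 tested Fc and inhibitory receptors and their partners (42.9% called, against 6.35% overall). The others were Fcmr and Fcer1g, the shared signaling chain of Fc receptors, which went from 57.9 ± 30.2 to 25.6 ± 9.77 CPM (adjusted p = 0.0469). Fcer1g was not called without the library of control mice 1, 2, 3, 9 or 10 or transgenic mice 6, 7, 8, 14, 15 or 16 (adjusted p 0.0539 to 0.0958).

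P2ry10, a receptor for lysophospholipids, went from 25.4 ± 6.63 to 10.1 ± 2.75 CPM without overlap (adjusted p = 1.04e-04, log2 fold change −1.33 with SE 0.24). Lgals9, the lectin galectin-9, went from 46.00 ± 12.7 to 19.8 ± 10.5 CPM (adjusted p = 2.63e-04, log2 fold change −1.28 with SE 0.23). Cyp4f18, a cytochrome that inactivates leukotriene B4, had the lowest adjusted p of the named genes. It ranged from 87.1 to 119 CPM (median 101) in controls and from 30.7 to 55.3 CPM (median 40.4) in transgenic mice (adjusted p = 5.18e-11, log2 fold change −1.30 with SE 0.13).

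Lat, an adaptor of T cell and mast cell receptors, ranged from 23.7 to 38.7 CPM (median 27.4) in controls and from 3.84 to 17.6 CPM (median 12.9) in transgenic mice, without overlap (adjusted p = 3.89e-05, log2 fold change −1.41 with SE 0.24). The 12 T cell markers, none of them at 0 across the libraries, moved the same way. They summed to 48.7 to 87.6 CPM (median 60.5) in controls and to 16.8 to 70.2 CPM (median 21.5) in transgenic mice (exact permutation p = 0.00295, adjusted p = 0.0221 over 15 library measures). Their part in the decrease of Lat was not tested.

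The antigen presentation genes Ctss and Cd74 fell without their MHC class II partners passing the test. Ctss, the cathepsin that trims the invariant chain, ranged from 796 to 1392 CPM (median 1089.6) in controls and from 456 to 646 CPM (median 548) in transgenic mice (adjusted p = 1.01e-05, log2 fold change −1.06 with SE 0.11). Cd74, the invariant chain, ranged from 3071 to 4244 CPM (median 3519) in controls and from 2023 to 2654 CPM (median 2294) in transgenic mice (adjusted p = 8.16e-09, log2 fold change −0.61 with SE 0.07). Neither gene had a control library within the transgenic range. The other 8 tested members of this list did not pass. The list median was −0.01 with 20% called, against 6.35% of all tested genes. With scaling by totals alone that median was 0.08 and 1 further member was called higher.

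Few plasma cell regulators passed. Of 17 tested transcription factors 2 fell and none rose (11.8% called, against 6.35% of all tested genes, and median log2 fold change 0.13). Pou2af1, the coactivator OBF-1, went from 836 ± 78.8 to 656 ± 88.03 CPM (adjusted p = 0.00117, log2 fold change −0.35 with SE 0.07). Ikzf3, the lymphoid factor Aiolos, went from 68.5 ± 12.1 to 47.2 ± 11.2 CPM (adjusted p = 0.0127, log2 fold change −0.53 with SE 0.14), a call lost without the control library of mouse 12 (adjusted p = 0.0527) and under DESeq2 and scaling by totals. Prdm1 (56.7 ± 7.43 CPM in controls and 51.95 ± 12.8 CPM in transgenic mice, adjusted p = 0.679), Xbp1 (log2 −0.18, adjusted p = 0.117) and Irf4 (log2 0.25, adjusted p = 0.516) did not pass.

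Id2, an inhibitor of E protein transcription factors (chromosome 12, 25093799 to 25097140), fell clearly. It ranged from 20.9 to 55.2 CPM (median 33.7) in controls and from 7.63 to 20.5 CPM (median 11.6) in transgenic mice, and every control exceeded every transgenic library on this TMM scale (adjusted p = 6.61e-06, log2 fold change −1.50 with SE 0.23). The nearest libraries, of control mouse 9 and transgenic mouse 6, held 13 UMIs each and change order with scaling by totals alone. Id2 was the only one of 4 tested Id and E protein genes to pass.

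Of 27 tested plasma cell surface and secretory genes 6 fell and 3 rose (33.3% called, against 6.35% of all tested genes, and median −0.12). Jchain, which joins IgM and IgA into polymers, went from 59261 ± 10027 to 40051 ± 8286 CPM (adjusted p = 0.00486, log2 fold change −0.57 with SE 0.12). Ly6a (Sca-1) and Ly6c1, surface antigens of the Ly6 family, fell by log2 0.59 and 0.73 (adjusted p = 0.00238 and 0.00360). Ly6c2, a near copy of Ly6c1, fell too (log2 −0.64), and how UMIs were shared between these copies is uncertain. Sdc1, which encodes the CD138 used for the sort, went from 450.3 ± 43.1 to 371 ± 39.2 CPM (adjusted p = 0.0123), and Tnfrsf13b, the receptor TACI, from 297 ± 24.8 to 238 ± 40.7 CPM (adjusted p = 0.0177). With scaling by totals alone neither Sdc1 nor Tnfrsf13b passed. Tnfrsf13b was not called without the library of control mice 4 or 10 or transgenic mice 6 or 16 (adjusted p 0.0501 to 0.0650).

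Members of this list that rose did so by small amounts. They were Derl3 (1202 ± 73.9 to 1387 ± 63.6 CPM, adjusted p = 0.0324), which works in degradation at the endoplasmic reticulum, Tram2 (137 ± 18.4 to 173 ± 20.2 CPM, adjusted p = 0.0257) and the integrin subunit Itga4 (68.7 ± 9.16 to 89.7 ± 15.04 CPM, adjusted p = 0.0484). Derl3 was not called without the library of control mice 9 or 10 or transgenic mice 8 or 15 (adjusted p 0.0576 to 0.0749). Tram2 was not called without the library of control mice 4 or 11 or transgenic mouse 8 (adjusted p 0.0573 to 0.0748). Itga4 was not called without the library of control mice 1, 4, 9, 10 or 11 or transgenic mice 5, 6, 7, 13 or 15 (adjusted p 0.0538 to 0.125). Mzb1, a chaperone for IgM assembly, did not pass (log2 0.20, adjusted p = 0.120).

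Transgenic plasma cells held less IgM transcript and larger shares of several switched isotypes. Shares below are of the UMIs of the heavy chain constant genes (Ighm for IgM, Igha for IgA, Ighe for IgE, and Ighg1, Ighg2b, Ighg2c and Ighg3 for IgG), which sum to 100% in that library, so a fall of 1 share raises others. Between 179709 and 290317 UMIs stood behind them per library. Ighm took 21.8 to 54.5% in controls (median 43.8%) and 8.40 to 19.4% in transgenic mice (median 14.4%). The ranges did not overlap (42.3 ± 9.80% and 14.1 ± 4.25%, n = 8 each, two-sided exact permutation p = 1.55e-04, and 0.00140 when adjusted over 9 shares). Within mice 1 to 8 the difference was −25.01 points and within mice 9 to 16 it was −31.4 points (exact p = 0.0286 each, the smallest possible).

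Ighg1 rose from 5.49 ± 4.04% to 15.7 ± 5.62% of heavy chain UMIs (exact permutation adjusted p = 0.00769, n = 8 each) and Ighg2c from 10.4 ± 3.73% to 18.6 ± 6.54% (adjusted p = 0.0191). Ighe, the rare IgE heavy chain, ranged from 4.14e-04 to 0.144% in controls (median 0.00231%) and from 0.00192 to 0.798% in transgenic mice (median 0.284%, exact permutation adjusted p = 0.0434). Transgenic mice 5, 7 and 13 lay at 0.00192 to 0.00371% of heavy chain UMIs and the other transgenic mice at 0.189 to 0.798%. Control mice 10 and 11 held 0.0677 and 0.144%, and the other controls at most 0.00278%. The lowest of these shares rest on few UMIs. Ighg2b (13.5 ± 6.74% and 20.9 ± 7.75%, adjusted p = 0.0741), Igha (22.8 ± 9.70% and 28.0 ± 8.60%, adjusted p = 0.312) and Ighg3 (5.49 ± 4.55% and 2.31 ± 1.07%, adjusted p = 0.0508) did not pass. The within-set differences for mice 1 to 8 and 9 to 16 were 7.46 and 13.02 points for Ighg1 (exact p = 0.114 and 0.0286) and 9.55 and 6.95 points for Ighg2c (exact p = 0.0857 and 0.0571).

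**Figure D3:**
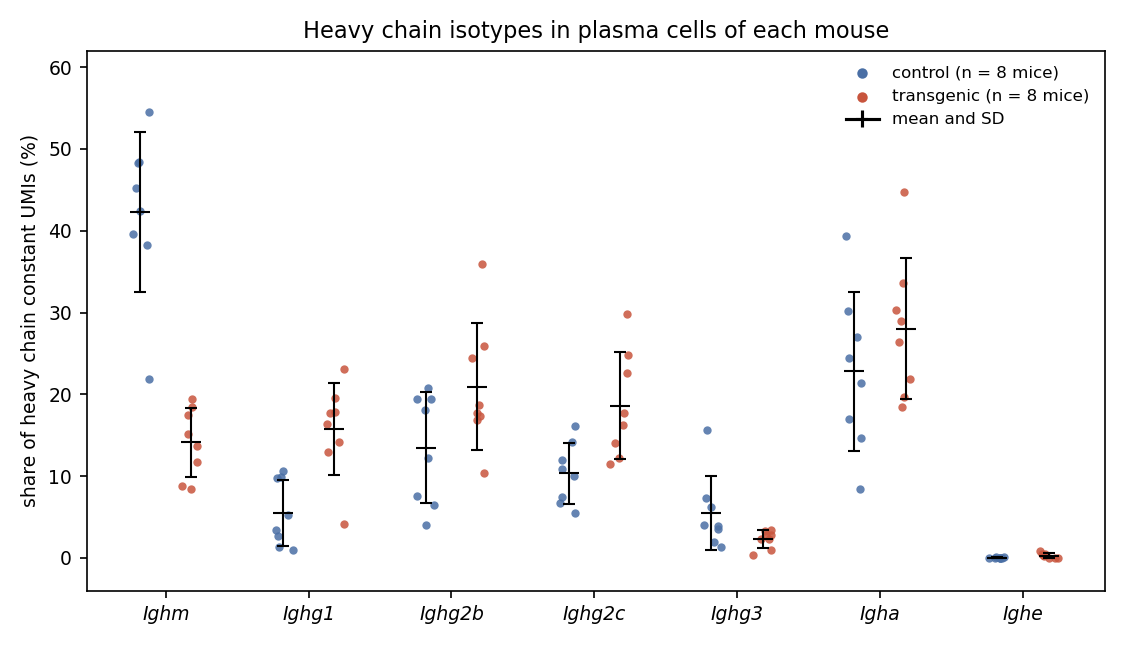
Share of each isotype among heavy chain constant UMIs (y axis, percent) in plasma cells of each mouse, 8 controls in blue and 8 transgenic mice in red, with mean and SD in black. The transgenic points of Ighm lie between 8.40 and 19.4%, below every control, and the Ighg1 and Ighg2c points are shifted upward with overlap.

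Tested gene by gene on the CPM scale, Ighm was the heavy chain gene that passed. Ighm went from 161805 ± 39337 to 55218 ± 19043 CPM (adjusted p = 6.59e-04, log2 fold change −1.55 with SE 0.23), and its part of all UMIs from 14.9 ± 3.34% to 5.37 ± 1.68%. Ighg1 (log2 1.54, SE 0.48, adjusted p = 0.0796), Ighg2c (0.87, adjusted p = 0.0866), Ighg2b (0.65, adjusted p = 0.331), Ighg3 (−1.27, adjusted p = 0.212) and Igha (0.30, adjusted p = 0.656) did not pass in edgeR. Tags from the 3′ end were not separated into the membrane and secreted forms of a heavy chain.

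Both tested light chain constant genes fell, Igkc from 121712 ± 14621 to 96007 ± 10314 CPM (adjusted p = 0.00702) and Iglc2 from 16335 ± 4503 to 8425 ± 3713 CPM (adjusted p = 0.0476). With scaling by totals alone neither passed. Iglc2 was not called without the library of control mice 1, 2, 4, 9, 10, 11 or 12 or transgenic mice 5, 6, 7, 8, 14 or 16 (adjusted p 0.0554 to 0.0994). The share of Igkc in Igkc plus Iglc2 went from 88.2 ± 2.98% to 92.0 ± 3.24% (exact permutation adjusted p = 0.0434). Of the variable and joining segments, 4 of 19 Ighv and 3 of 4 Ighj genes were higher, 2 of 3 Iglv genes were lower, and none of 53 Igkv or 4 Igkj genes passed. Over all tested genes 2.31% were higher and 4.03% were lower. Segments share sequence, and the sources used here do not say how the authors assigned tags to them.

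Genes induced by interferon rose in part. All 7 tested interferon-induced GTPases had positive fold changes and 4 passed (57.1%, against 6.35% of all tested genes). Their median log2 fold change was 0.69, against 0.00 over all tested genes. Igtp (chromosome 11, 58199556 to 58207591), which attacks the vacuoles of intracellular pathogens, ranged from 48.1 to 95.7 CPM (median 71.9) in controls and from 104 to 214 CPM (median 140.2) in transgenic mice, without overlap (adjusted p = 2.02e-04, log2 fold change 1.04 with SE 0.16). Tgtp1 and its near-identical neighbor Tgtp2 went from 11.6 ± 5.56 to 33.02 ± 15.5 CPM and from 11.7 ± 4.75 to 31.95 ± 15.1 CPM (adjusted p = 0.00219 and 0.00245), and UMIs may be split between them. Ifi47 rose by log2 0.69 (adjusted p = 0.0218). Ifi47 was not called without the library of control mice 3, 4 or 10 or transgenic mouse 7 (adjusted p 0.0569 to 0.0627). Among mice 9 to 16 alone Tgtp1, Tgtp2 and Ifi47 were not called. In that set Ifi47 ranged from 16.2 to 36.5 CPM in controls and from 29.1 to 37.6 CPM in transgenic mice. Irgm1 (log2 0.58), Gbp3 (0.69) and Gbp4 (0.58) did not pass.

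Among 13 further interferon-stimulated genes and factors 3 rose and 1 fell (30.8% called, against 6.35% of all tested genes). Bst2, the viral tether tetherin, went from 178 ± 32.1 to 269 ± 45.1 CPM (adjusted p = 1.53e-04, log2 fold change 0.60 with SE 0.10). Samhd1, a nucleotide hydrolase, went from 212 ± 23.6 to 263 ± 27.5 CPM (adjusted p = 0.0152, 0.0506 without the library of transgenic mouse 8). The member that fell was Ly6e, a Ly6 family surface protein, which ranged from 1410.4 to 2264 CPM (median 1844) in controls and from 885 to 1302 CPM (median 1200.1) in transgenic mice (adjusted p = 2.58e-05, log2 fold change −0.75 with SE 0.10). Its ranges did not overlap.

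Of 19 tested MHC class I and peptide loading genes 1 rose and 1 fell (10.5% called, against 6.35% of all tested genes). Psmb8, an immunoproteasome subunit, rose from 717 ± 113 to 932 ± 121 CPM (adjusted p = 0.00360). B2m, the class I light chain, fell from 8677 ± 824 to 6928 ± 859.8 CPM (adjusted p = 0.00436), a call that scaling by totals alone did not keep.

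Few cell cycle genes passed, and those that did were higher. Of 31 tested 3 rose and none fell, 9.68%, close to the 6.35% called over all genes. Fold changes were positive for 25 of the 31 and negative for 6 (median log2 fold change 0.33, against 0.00 over all tested genes). E2f2, a factor for entry into S phase (chromosome 4, 136172394 to 136196057), ranged from 22.7 to 44.99 CPM (median 30.2) in controls and from 44.4 to 81.6 CPM (median 65.6) in transgenic mice (adjusted p = 3.89e-06, log2 fold change 1.08 with SE 0.16). Its ranges touched at a single pair of libraries. Mki67, the proliferation marker Ki-67, ranged from 16.4 to 29.2 CPM (median 24.2) in controls and from 31.2 to 101 CPM (median 40.4) in transgenic mice (adjusted p = 0.00243, log2 fold change 1.09 with SE 0.23), and the transgenic library of mouse 16 was the highest. Ccne1, cyclin E1, went from 25.6 ± 11.3 to 46.01 ± 12.2 CPM (adjusted p = 0.00748, log2 fold change 0.83 with SE 0.20).

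Fanca of the Fanconi anemia complex went from 11.97 ± 4.07 to 22.6 ± 6.03 CPM (adjusted p = 0.0143) and the centriole gene Tedc1 from 12.9 ± 6.16 to 25.3 ± 9.16 CPM (adjusted p = 0.00940), both among the 15 largest increases. Birc5, a mitotic regulator counted among the apoptosis genes, did not pass (38.7 ± 22.8 CPM in controls and 49.9 ± 21.97 CPM in transgenic mice, adjusted p = 0.658). The summed GC B cell markers, which could carry dividing cells, were 236 to 320 CPM in controls and 190 to 307 CPM in transgenic mice (exact permutation p = 0.284). Their part in the cell cycle genes was not tested.

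Tmem63b, a mechanosensitive ion channel, rose the most and ranged from 10.96 to 92.9 CPM (median 24.1) in controls and from 52.7 to 213 CPM (median 139.6) in transgenic mice (adjusted p = 0.0163, log2 fold change 1.82 with SE 0.42). Control mice spread over several-fold and overlapped the transgenic mice. Pik3r5, a regulatory subunit of PI3K gamma, ranged from 12.5 to 37.4 CPM (median 22.1) in controls and from 31.5 to 74.6 CPM (median 52.4) in transgenic mice (adjusted p = 6.05e-06, log2 fold change 1.21 with SE 0.18). Scimp, an adaptor in MHC class II signaling, went from 16.01 ± 8.35 to 35.1 ± 12.9 CPM (adjusted p = 0.0146, log2 fold change 1.11 with SE 0.28).

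Fgd2, an exchange factor for Cdc42, went from 17.4 ± 8.09 to 34.8 ± 8.43 CPM (adjusted p = 0.00120, log2 fold change 1.01 with SE 0.21). Pld4, an endolysosomal nuclease, went from 87.2 ± 39.8 to 162 ± 41.6 CPM (adjusted p = 0.0458). Pld4 was not called without the library of control mice 1, 4, 9, 10, 11 or 12 or transgenic mice 5, 6, 7, 15 or 16 (adjusted p 0.0517 to 0.0905). Cxcr3, a chemokine receptor that guides plasma cells to inflamed tissue, ranged from 27.6 to 121 CPM (median 59.5) in controls and from 86.03 to 211 CPM (median 125) in transgenic mice (adjusted p = 0.0191, log2 fold change 1.06 with SE 0.25).

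Among 16 tested TNF family and trafficking receptors 3 rose and 2 fell (31.2% called, against 6.35% of all tested genes). Those that rose were Cxcr3, Itga4 and the hyaluronan receptor Cd44 (178 ± 20.8 to 232 ± 31.1 CPM, adjusted p = 0.00440). Tnfrsf13b was among those that fell. Of 13 immediate early and stress genes 2 rose (15.4% called, against 6.35% of all tested genes). They were Btg2 (305 ± 47.8 to 406 ± 74.04 CPM, adjusted p = 0.0106) and Gadd45b (40.8 ± 13.9 to 57.3 ± 10.1 CPM, adjusted p = 0.0484). Gadd45b was not called without the library of control mice 1, 4, 9, 10, 11 or 12 or transgenic mice 5, 6, 7, 14, 15 or 16 (adjusted p 0.0551 to 0.117).

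In the secretory apparatus calls were about as frequent as the 6.35% over all genes. Of 30 tested genes of the unfolded protein response and folding 2 rose (6.67%). Fold changes were positive for 25 of them and negative for 5 (median log2 fold change 0.13, against 0.00 over all tested genes). Hspa5, the chaperone BiP, ranged from 1965 to 2636 CPM (median 2334) in controls and from 2211 to 3478 CPM (median 3034) in transgenic mice (adjusted p = 0.00674, log2 fold change 0.33 with SE 0.08). Syvn1, a ubiquitin ligase for misfolded proteins, went from 339.7 ± 33.1 to 408 ± 41.5 CPM (adjusted p = 0.0232), and lost its call without control mouse 10 (adjusted p = 0.0609) or transgenic mouse 7 (adjusted p = 0.0572). Of 42 genes of the translocon, glycosylation and vesicle transport 2 rose and 1 fell (7.14%). Lman1, a cargo receptor (412 ± 54.2 to 531 ± 53.6 CPM, adjusted p = 0.00117), and Copz1, a COPI coat subunit (80.6 ± 13.5 to 107 ± 10.7 CPM, adjusted p = 0.0166), rose. Spcs2, of the signal peptidase, fell (1346 ± 134 to 1136 ± 125 CPM, adjusted p = 0.0239). Spcs2 was not called without the library of control mouse 3 or transgenic mice 6, 7, 15 or 16 (adjusted p 0.0506 to 0.0889).

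No member passed in 6 lists. They covered amino acid synthesis and transport (19 tested, median 0.06), glycolysis (9, median 0.23), oxidative phosphorylation (30, median 0.04), Myc targets and ribosome biogenesis (21, median 0.05), apoptosis regulators (10, median 0.15) and class switch machinery (2, median 0.14). Aldoa, a glycolytic enzyme, had 403 ± 30.3 CPM in controls and 379 ± 24.3 CPM in transgenic mice (adjusted p = 0.556), and Atp5a1, an ATP synthase subunit, had 464 ± 44.5 CPM in controls and 478 ± 39.7 CPM in transgenic mice (adjusted p = 0.809). Slc3a2, the heavy chain of amino acid transporters, lay near the threshold (1007 ± 248 CPM in controls and 694 ± 147 CPM in transgenic mice, adjusted p = 0.0513). The survival gene Mcl1 had 187 ± 22.04 CPM in controls and 155 ± 23.2 CPM in transgenic mice (adjusted p = 0.0756).

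**Figure D4:**
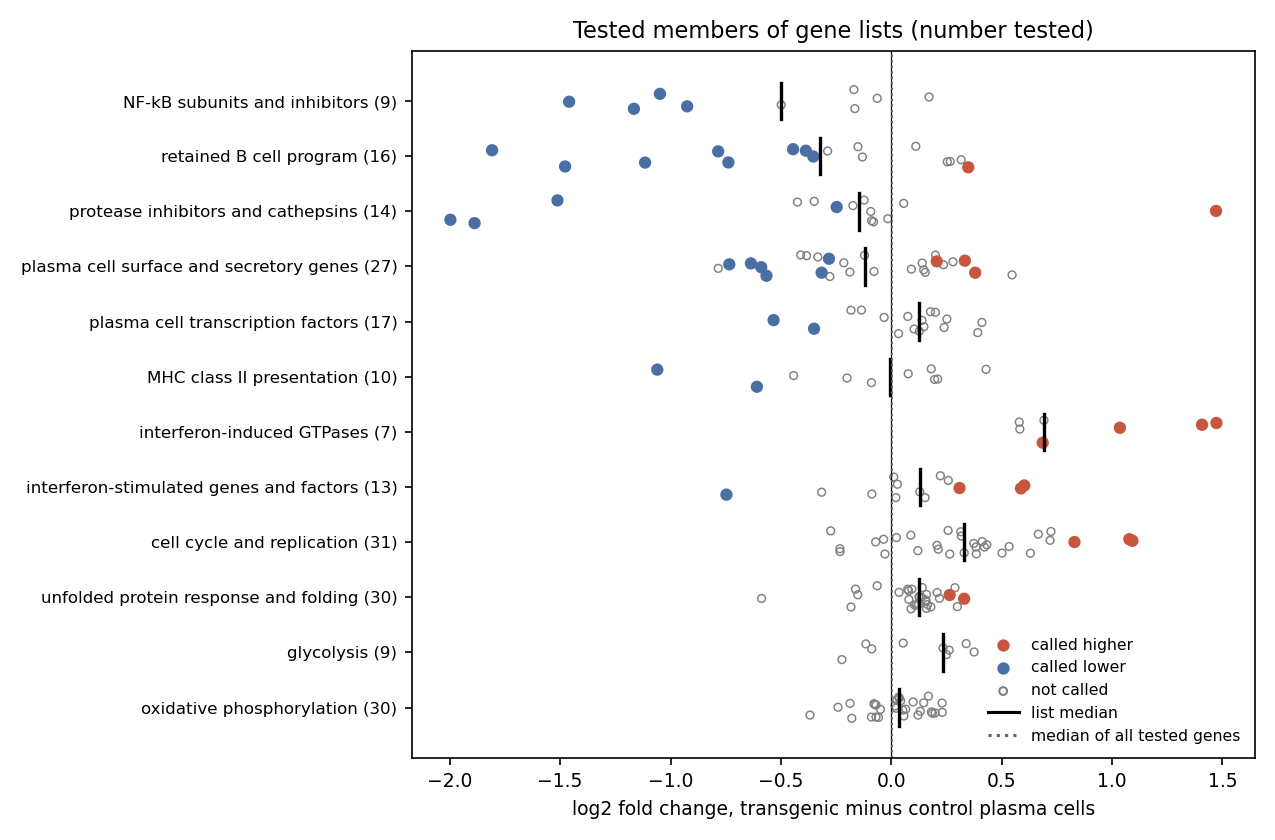
Log2 fold change (x axis, transgenic minus control plasma cells) of each tested member of 12 gene lists (rows, with the number tested). Filled points were called (red higher, blue lower), open points were not, black bars are list medians and the dotted line is the median of all tested genes; the NF-kB list has its 4 calls on the left and the interferon-induced GTPases have 4 on the right.

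The genotype effect was then compared with that in GC B cells and naive B cells of the same mice, in 1 fit of the 48 libraries with 7744 genes. The effect in plasma cells differed from that in GC B cells for 122 genes (1.58%), with 81 lower and 41 higher in plasma cells. It differed from that in naive B cells for 90 genes (1.16%), 78 lower and 12 higher. Of 90 named genes in this fit 26 differed from GC B cells, 25 from naive B cells and 13 from both. These genes were named for their effect in plasma cells, so the counts are no independent sign of a special effect there.

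Ctss gave a difference of −0.96 from GC B cells and −1.12 from naive B cells on the log2 scale (adjusted p = 1.37e-11 and 3.52e-15). Its effects were −1.05 (SE 0.07) in plasma cells, −0.09 (SE 0.08) in GC B cells and 0.07 (SE 0.08) in naive B cells. Ptpn6 and Ly6e followed the same order of effects (differences from GC B cells −0.83 and −0.68, adjusted p = 9.79e-07 and 1.76e-07). Nfkbia fell in plasma cells (−1.04 (SE 0.13)) and had effects of 0.19 (SE 0.13) in GC and 0.01 (SE 0.16) in naive B cells (adjusted p of the differences 5.22e-05 and 0.00300). The difference passed against GC B cells for Nfkb2 and against naive B cells for Relb (adjusted p = 0.0424 and 0.0164). With mouse as a block Relb also differed from GC B cells (adjusted p = 0.0106, against 0.0646 without it).

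Serpina3g, Cxcr3 and Pld4 had estimated effects of opposite sign in GC B cells, of which Pld4 alone passed there. Serpina3g had −1.99 (SE 0.28) in plasma cells, 0.38 (SE 0.33) in GC B cells and 1.39 (SE 0.33) in naive B cells (adjusted p of the differences 9.46e-04 and 2.45e-06), and the latter effects did not pass (adjusted p = 0.602 and 0.141). Cxcr3 had 1.07 (SE 0.22) in plasma cells and −1.12 (SE 0.45) in GC B cells (adjusted p of the difference 0.0105, of the GC effect 0.147). Pld4 had effects of 0.91 (SE 0.19) and −0.73 (SE 0.19) (adjusted p of the difference 1.02e-04, of the GC effect 0.0123). E2f2 and Mki67 rose in plasma cells and had effects of −0.15 (SE 0.11) and 0.07 (SE 0.11) in GC B cells (adjusted p of the differences 9.61e-07 and 0.00324).

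Ighm differed from both other populations (−1.54 (SE 0.20), −0.10 (SE 0.20) and 0.22 (SE 0.20) in plasma, GC and naive B cells, adjusted p of the differences 0.00151 and 1.46e-04). Naive B cells had been sorted on IgD and IgM, which bears on their Ighm. Pycr1, an enzyme of proline synthesis, did not pass in plasma cells and had an effect of 1.96 (SE 0.38) in GC B cells (adjusted p of the difference 5.78e-05).

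For Igtp and Tgtp1 no difference between populations was detected. Igtp had effects of 1.05 (SE 0.14), 1.10 (SE 0.21) and 0.69 (SE 0.27) in plasma, GC and naive B cells (adjusted p of the differences 0.955 and 0.795). Tgtp1 had 1.49 (SE 0.43), 1.78 (SE 0.29) and 1.25 (SE 0.37) (adjusted p of the differences 0.890 and 0.962). Cyp4f18 and Foxp1 had effects of −1.22 (SE 0.21) and −1.02 (SE 0.19) in GC B cells and −1.29 (SE 0.20) and −1.11 (SE 0.25) in plasma cells (adjusted p of the differences 0.957 and 0.948). In naive B cells their effects were −0.14 (SE 0.21) and −0.003 (SE 0.19), and the difference from plasma cells passed for Cyp4f18 (adjusted p = 0.0315) but not for Foxp1 (adjusted p = 0.0722). A p that misses the threshold does not show that effects are equal.

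**Figure D5:**
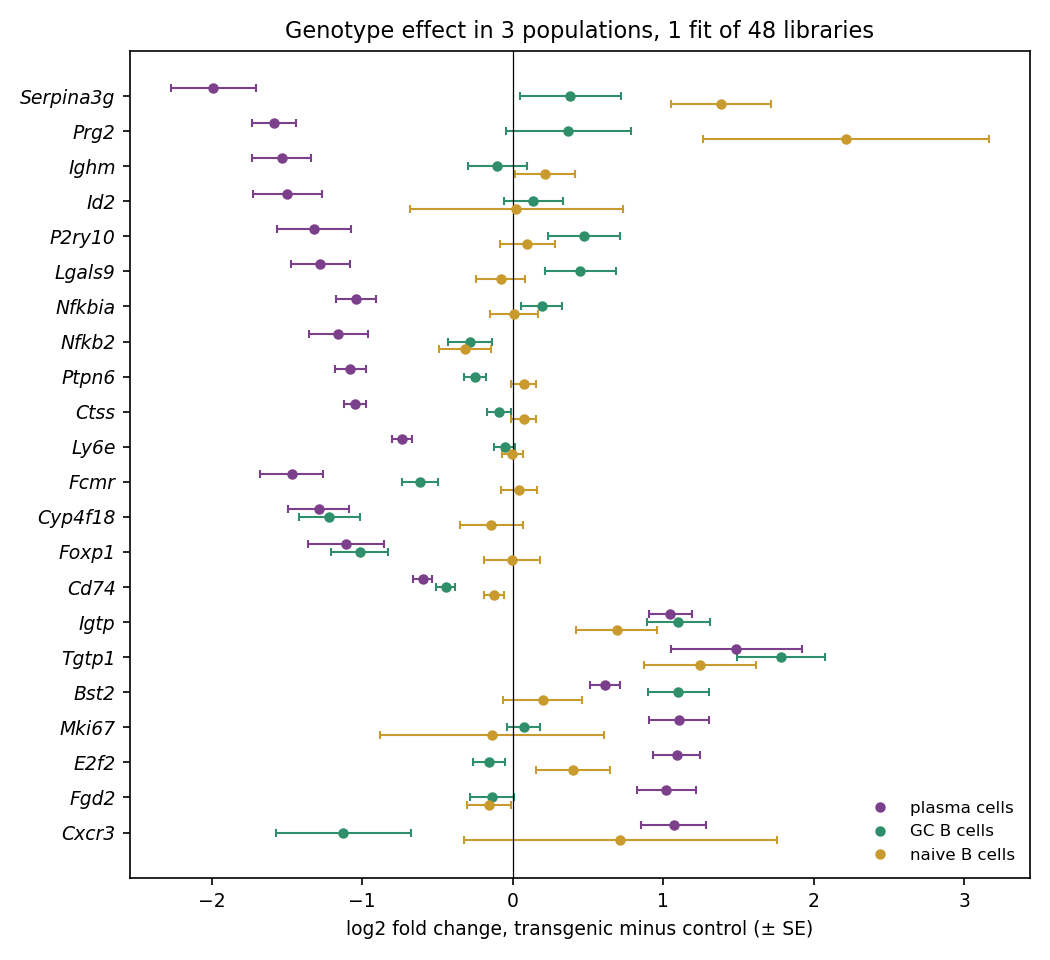
Genotype effect (x axis, log2 fold change, transgenic minus control, ± SE) of 22 named genes (rows) in plasma cells (purple), GC B cells (green) and naive B cells (yellow), from 1 fit of 48 libraries. For Ctss, Ly6e and Nfkbia the plasma cell points lie left of the other points, and for Igtp and Tgtp1 all populations lie to the right of 0.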

How the data were processed

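Messenger RNA of 1000 sorted cells per mouse was measured by bulk SCRB-seq, per the labels' protocols. Per the submitters' processing notes, the authors used STAR and the build GRCm38.p5. They deposited 1 table of UMI counts per gene for 48 libraries. STAR's version, the annotation release and UMI collapsing are not stated in those sources. The table held 20007 genes, of which GENCODE M21 named 19701; unnamed genes held 0.205% of plasma cell UMIs. Both genotypes carry 1 further allele, which, like some genes, is not reported here. Ighd, Iglc1, Iglc3, Bcl2a1a and Bcl2a1d were not analysed here.

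The 16 plasma cell libraries, 1 per mouse, went into the quasi-likelihood test of edgeR 4.0.16 (R 4.3.3; robust fit, TMM scaling, filterByExpr, Benjamini-Hochberg threshold 0.05), with and without immunoglobulin genes. CPM are counts scaled to the library total times its TMM factor, ± SD over 8 mice. Differences between populations were contrasts in 1 fit of 48 libraries. Each SE was derived from its edgeR test as the absolute log2 fold change over the square root of the F statistic. These SE values are approximate. Replicate numbers are mouse numbers, shared across populations but not between genotypes, so the plasma cell comparison has no pairs. Libraries of 1 mouse come from 1 animal and had deviations from their group means correlated at 0.0876 to 0.407 between plasma and GC B cells and at 0.0185 to 0.220 between plasma and naive B cells (1260 genes). Shares, marker sums as log2(CPM + 1) and Rel were compared by two-sided exact permutation over 12870 splits. Mice 1 to 8 and 9 to 16 were also compared apart, since numbers are split that way between genotypes; the labels do not call them batches.

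The text names Rel, the 15 largest increases and 14 of the 15 largest decreases among called genes whose mean reached 10 CPM (leaving out immunoglobulin, T cell receptor, Y-linked genes, Xist and genes known only by number), up to 4 called members per list and direction, the 3 most abundant members of a list without a call, and the immunoglobulin constant genes; other list members are given as values. Members and lists were chosen with earlier results of these data known. Alternatives were DESeq2 1.42.0, RLE factors, totals alone, no filter, a filter on a mean of 10 CPM, all 48 libraries, a mouse number term, a Y-linked term and leaving out each library. The scripts were tested on simulated data for the plasma cell comparison (4355 genes). Of 62 genes changed by 1.5-fold, 50% were called, of 58 changed by 2-fold 93.1% and of 57 changed by 4-fold 100%. Of all calls 8.39% fell on unchanged genes, above the share set by the adjusted p threshold. A gene without a call, as in the lists where no member passed, may therefore still differ by about 1.5-fold.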

Additional observations from a re-analysis of the deposited data

Results flagged for a closer look

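In 20 of 228 groups of 8 libraries 1 library stood apart from the others (Dixon's ratio above 0.526). Chance alone flags about 1 in 20 groups where values are normally distributed. In controls the libraries that stood apart were mouse 2 for Ighg3 (64832 CPM, and 15.6% of heavy chain UMIs), mouse 3 for Fgd2 (34.9 CPM) and mouse 11 for the Ighe share (0.144%). Control mouse 12 stood apart for Ly6c1 (489 CPM), Ly6a (931 CPM), Slc3a2 (1556 CPM) and Cst3 (1379 CPM). Control mouse 10 did so for the summed neutrophil markers (1.39 on the log2(CPM + 1) scale) and control mouse 1 for the erythroid markers (9.28). The neutrophil sum of control mouse 10 was only 1.62 CPM, at the floor, and all other controls were at 0.

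In transgenic mice the libraries were mouse 8 for Foxp1 (47.7 CPM), mouse 5 for Slc3a2 (1030.2 CPM), mouse 6 for Btg2 (567 CPM), mouse 15 for Tram2 (128 CPM) and mouse 13 for Slpi (2781 CPM). Mouse 16 was low for Parp1 (71.9 CPM) and high for Mki67 (101 CPM). On the log2(CPM + 1) scale the marker sums of NK cells in mouse 6 (1.37), neutrophils in mouse 15 (7.49) and stromal cells in mouse 13 (2.37) stood apart as well.

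The genotype effect passed a test of difference between plasma and GC B cells for 26 named genes. Plasma minus GC differences on the log2 scale were −2.37 for Serpina3g, −1.96 for Prg2, −1.43 for Ighm, −2.54 for Serpina3f, −1.63 for Id2, −1.79 for P2ry10, −1.73 for Lgals9, −0.87 for Nfkb2, −0.83 for Ptpn6, −0.96 for Ctss, −1.23 for Nfkbia, −1.07 for Iglc2, −1.19 for Ebi3, −0.68 for Ly6e, −0.83 for Slc3a2, −0.55 for B2m, −2.19 for Pycr1 and −0.66 for Aldoa. They were positive for Syvn1 (0.42), Btg2 (0.75), Pld4 (1.65), Tedc1 (1.31), Fgd2 (1.16), Cxcr3 (2.20), E2f2 (1.24) and Mki67 (1.03).

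Between plasma and naive B cells 25 named genes passed. Plasma minus naive differences were −3.37 for Serpina3g, −1.74 for Apoe, −3.80 for Prg2, −1.75 for Ighm, −3.36 for Serpina3f, −1.51 for Fcmr, −1.38 for Relb, −1.42 for P2ry10, −1.15 for Cyp4f18, −1.20 for Lgals9, −1.15 for Ptpn6, −1.12 for Ctss, −1.05 for Nfkbia, −1.27 for Iglc2, −1.05 for Nfkbie, −0.73 for Ly6e, −0.81 for Ptprcap, −0.47 for Cd74, −1.12 for Ly6a, −1.62 for Jchain, −0.49 for Pou2af1, −0.58 for B2m and −0.65 for Spcs2. They were positive for Cd24a (0.60) and Fgd2 (1.18).

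With mouse as a block, the plasma minus GC difference passed for 6 further named genes and was lost for 0. The plasma minus naive difference was gained for Slc3a2 (adjusted p = 0.0333) and lost for Jchain (adjusted p = 0.0790).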

How the results depend on the processing

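No called gene named here and no share that passed changed direction under the alternatives tried, while list medians changed sign under at least 1 alternative for MHC class I, MHC class II, immediate early genes, trafficking receptors, glycolysis, apoptosis, amino acid and oxidative phosphorylation genes. Against 288 called genes, DESeq2 gave 246 (95 higher, 151 lower), RLE factors 274, totals alone 284 (180 higher, 104 lower), no filter 380, a mean of at least 10 CPM, which admitted 6063 genes, 299, all 48 libraries 377, the mouse number term 306 and the Y-linked term 315. Mice 1 to 8 alone gave 71 and mice 9 to 16 alone 106; with 4 mice per genotype fewer samples enter. Leaving out 1 library gave 212 (without transgenic mouse 6) to 320 (without control mouse 2) calls, and without immunoglobulin genes 230 to 326. Of the 69 called named genes 52 kept their call in every fit without 1 library, DESeq2 kept 60 and totals alone 61, mice 1 to 8 kept 30 of 65 with a value and mice 9 to 16 kept 35. Calls were lost with DESeq2 for Nfkbie, Ikzf3, Tnfrsf13b, Spcs2, Tram2, Itga4, Gadd45b, Ifi47 and Fanca. Totals alone lost Iglc2, Igkc, Ikzf3, B2m, Tnfrsf13b, Sdc1, Cst3 and Spcs2. No filter lost Slpi, Pld4, Jchain, Iglc2, Tnfrsf13b, Sdc1, Cst3, Spcs2 and Itga4. All 48 libraries lost Jchain, Igkc, Tnfrsf13b, Sdc1, Derl3, Itga4, Ifi47 and Tgtp2. The mouse number term lost Slpi and Fcer1g, which were lost with Pld4 and Iglc2 by the mean of 10 CPM, and RLE factors lost Iglc2. The cause was not tested.

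Mice 1 to 8 and 9 to 16 apart gave differences that no longer passed for Ighg1 (7.46 points in mice 1 to 8, exact permutation p = 0.114), Ighg2c (9.55 and 6.95, exact p = 0.0857 and 0.0571), Ighg3 (−4.98 and −1.38, exact p = 0.143 and 0.257), Ighe (0.235 and 0.288, exact p = 0.0571 and 0.143), Igkc (3.90 and 3.79, exact p = 0.0571 and 0.143) and Rel (3.62 CPM in mice 1 to 8, exact p = 0.143). A design of 4 against 4 cannot go below 0.0286. The Ighg3 share had an unadjusted p of 0.0339.

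With each mouse as a block the plasma minus GC contrast gave 148 calls against 122 and the plasma minus naive contrast 86 against 90. Without immunoglobulin genes, and with no block, these contrasts gave 128 and 82. The block moved no count of calls by over 1.5 times. Depth limits genes of low level: 846 genes had an unadjusted p under 0.05, and Rel lay under the filter.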

Other observations

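Control mice differed among themselves in Slpi and Tmem63b, the most abundant and the most increased of the named increases. Tmem63b stood at 74.2, 60.03 and 92.9 CPM in control mice 2, 3 and 11 and at 10.96 to 27.3 CPM in the other controls. Slpi was 2423, 2996 and 3627 CPM in those mice, 2169 CPM in control mouse 9 and 559 to 932 CPM in the rest. The transgenic mice held 52.7 to 213 CPM of Tmem63b and 2781 to 5822 CPM of Slpi. These values were picked after they were seen and no test was made of them.

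The neutrophil markers summed to 179 CPM in the plasma cells of transgenic mouse 15 and to at most 1.62 CPM in any control. The erythroid markers summed to 619 CPM in control mouse 1, against a control median of 12.9 CPM.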
